A study of Mus musculus with 3 samples.

Results

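The STAT transcription factors examined here are Stat2, Stat3, Stat4, Stat5a, Stat5b and Stat6, taken by their symbols and GENCODE M21 identifiers from tables of 55536 mouse genes. These 6 genes have 41 annotated transcripts, of 141862 mouse transcripts in the deposited tables. Polyadenylated RNA was sequenced from activated regulatory T cells (Treg), a CD4 T cell lineage that depends on Foxp3 and holds immune responses in check. These primary cells came from mouse, labelled male at 3 weeks of age, and the labels name no strain, genotype, stimulus or duration of activation. The 3 libraries are labelled technical replicates 1, 2 and 3 of 1 biological replicate, so there is 1 group and no control. Each SD given is over the libraries (n = 3) and may reflect technical spread alone. Where 3 values are given they belong to libraries 1, 2 and 3 in that order.

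STAT proteins wait in the cytoplasm as inactive factors. A cytokine that binds its receptor brings Janus kinases (JAK) together, and these phosphorylate the receptor and then a single tyrosine near the end of the STAT protein. Phosphorylated STAT proteins pair through their SH2 domains, enter the nucleus and bind DNA, and SOCS proteins made in response shut the kinases down. In Treg, Stat5a and Stat5b carry the interleukin-2 signal that maintains Foxp3, Stat3 serves IL-6, IL-10, IL-21 and IL-27 receptors, and Stat4 and Stat6 serve the IL-12 and IL-4 receptors of type 1 and type 2 helper responses. Stat2 works with Irf9 downstream of type I interferon. None of these activation steps is read by RNA levels.

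Reads assigned to mouse genes numbered 30362256, 28419259 and 31959927. All 6 genes of the Treg marker list were present, from Foxp3 at 130.2 ± 21.99 TPM to Cd3e at 973 ± 47.2 TPM. TPM is transcript abundance scaled for length and to a fixed total. The libraries stood apart in markers of other cells. The summed TPM of 7 erythroid genes, led by Hbb-bs, was 14030, 1180 and 811, and that of 6 B-cell genes, led by Cd79b, was 43.6, 40.3 and 68.6. The sum was 6.83, 3.08 and 3.17 TPM for 6 dendritic-cell genes led by Zbtb46, 125, 64.5 and 78.2 TPM for 5 macrophage genes led by Lyz2, and 11.6, 1.86 and 1.04 TPM for 6 neutrophil genes led by S100a9. Natural killer and cytotoxic genes, 5 in number and led by Nkg7, summed to 369, 203 and 212 TPM, and Cd8b1 led the pair of CD8 genes, whose sum was 26.2, 20.4 and 28.4 TPM. The neutrophil gene Elane and the natural killer gene Ncr1 had 0 reads throughout, so an expected count of up to about 3 reads per library remains possible. In bulk RNA, fewer cells of a type and less RNA per cell cannot be told apart, and the part of these other cells in the values below was not tested.

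All 6 STAT genes were expressed at 1 TPM or more in every library, at levels above those of most protein-coding genes. Their mean levels ran from 52.3 ± 9.53 TPM for Stat2 to 202 ± 58.3 TPM for Stat3, with a median of 115 TPM over the 6, against a median of 30.1 TPM over the 10601 protein-coding genes detected in every library. Among all 22028 protein-coding genes Stat3 ranked 758, Stat4 1475, Stat6 1497, Stat5b 1598, Stat5a 2146 and Stat2 3537.

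Stat3, the factor of the IL-6 and IL-10 families, had 224, 246 and 136 TPM from 15445, 14782 and 10374 reads. Library 3 was the low one, and the highest library stood 1.81-fold above it. Stat5b, which with Stat5a transmits IL-2, had 134, 126 and 74.9 TPM, a mean of 112 ± 32.3 TPM, with library 3 again apart from the other pair. Stat5a had 102, 86.5 and 71.7 TPM, a mean of 86.7 ± 15.1 TPM. Library 1 was the highest for Stat5a and library 3 the lowest. Stat4, the IL-12 factor, had 134, 123 and 101 TPM, a mean of 120 ± 16.8 TPM. Stat6, the IL-4 and IL-13 factor, had 112, 139.5 and 104 TPM, a mean of 118 ± 18.7 TPM, and was the member with library 1 near library 3. Stat2, which forms the interferon-activated complex with Irf9, had 63.3, 46.6 and 46.9 TPM, and its library 1 stood 1.36-fold above its lowest. The deposited table also gives a posterior mean and a credibility interval for each level. For Stat3 these were 209.6 TPM (201.9 to 217.3), 228.3 TPM (219.9 to 237.3) and 129.3 TPM (123.3 to 135.2), so library 3 lay outside the other intervals. For Stat2 the intervals of library 2 (40.6 to 46.5 TPM) and library 3 (41.6 to 47.3 TPM) overlapped. The interval belongs to the posterior mean, which lies below the TPM value, so that some TPM values exceed it.

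**Figure D1:**
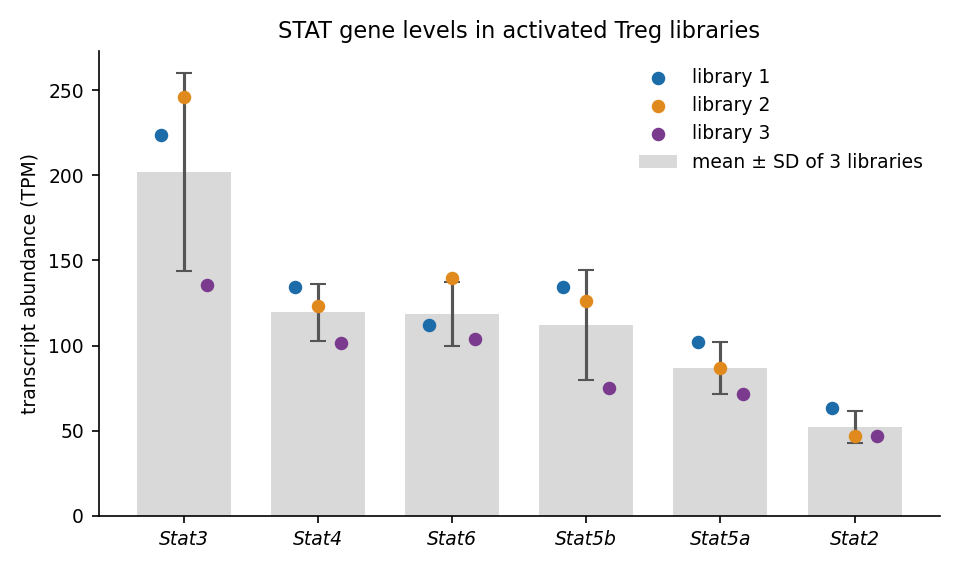
Transcript abundance in TPM (y axis, from 0) of each STAT gene (x axis, by mean level) in the 3 activated Treg libraries. Grey bars are means, whiskers are 1 SD (n = 3) and coloured points are libraries. Stat3 is highest in every library, Stat2 lowest, and library 3 is the lowest library for 5 of the 6 genes.

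In TPM, Stat3 stood above and Stat2 below the other members, and the order of those between was not settled. On the log2(TPM + 1) scale, 2 genes were taken to differ when their log2 ratio had the same sign in each library and its mean was more than 2 SD from 0. By that rule 10 of the 15 pairs differed. Stat3 was above each of the others, from 0.71 ± 0.29 (log2 ratio) over Stat4 to 1.90 ± 0.44 over Stat2. Stat2 was below each of the others, with Stat5a over Stat2 at 0.72 ± 0.14. Between them, Stat4 exceeded Stat5a by a log2 ratio of 0.46 ± 0.059, the tightest ratio of the 15. Of the 5 pairs of neighbours in the order, 2 differed beyond their spread, namely Stat3 over Stat4 and Stat5a over Stat2. Stat4 over Stat6 had log2 ratios of 0.26, -0.18 and -0.033. Stat6 over Stat5b had -0.26, 0.14 and 0.46, and Stat5b over Stat5a had 0.40, 0.54 and 0.062. The first and second of these changed sign between libraries, so TPM gives Stat4, Stat6 and Stat5b no order among themselves.

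The ratio of the Stat5 genes varied with the library. Stat5b TPM was 1.32, 1.46 and 1.04 times Stat5a TPM. Together they had 236, 213 and 147 TPM, which was 1.06, 0.865 and 1.08 times the Stat3 level. The sum of both Stat5 genes was therefore above Stat3 in libraries 1 and 3 and below it in library 2. When the main coding sequences were translated, Stat5a and Stat5b were identical at 731 of 781 aligned positions (93.6%), while the other 14 pairs reached 29.1% to 48.4%. At the read level, 608 of the 50-base windows of Stat5a-202 and of Stat5b-201 are shared between the genes, 12.1% of the windows of Stat5b-201. With the 23 windows that match Stat3 on the opposite strand, 17.1% of the windows of Stat5a-202 are shared. A read from a shared window fits both genes, so part of each level rests on how the expected counts divide such reads.

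**Figure D2:**
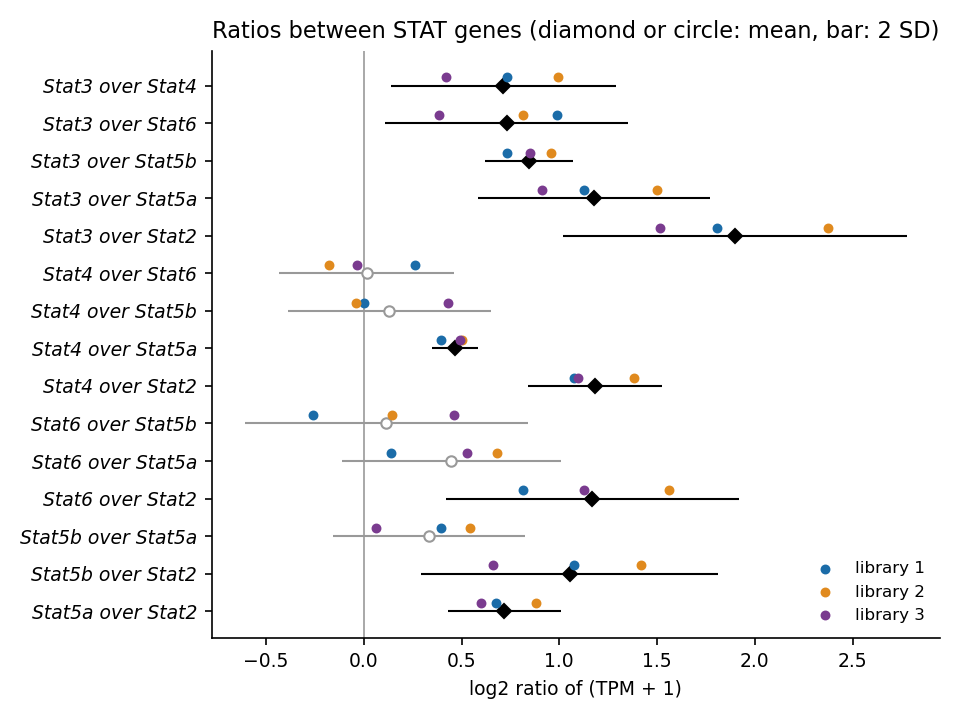
Log2 ratios of (TPM + 1) between STAT genes (x axis) for all 15 pairs (y axis). Coloured points are libraries, diamonds and circles are means and bars are 2 SD. Filled diamonds mark the 10 pairs larger than the spread, and open circles mark the 5 that are not.

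A second gene table deposited by the authors, with fewer genes and only 8294501 to 8714761 reads per library, gave another order. Divided by the same gene lengths, its reads per kilobase, scaled to TMM effective library sizes, averaged 142 for Stat4, 124 for Stat3, 114 for Stat6, 64.3 for Stat5a, 60.1 for Stat2 and 58.1 for Stat5b. The log2 ratio of Stat3 over Stat4 was -0.20 ± 0.13 there and that of Stat5b over Stat2 was -0.057 ± 0.31, so neither pair differed by more than 2 SD. Stat5a over Stat2 (0.10 ± 0.13) and Stat3 over Stat6 (0.12 ± 0.081) also came within 2 SD, so neither end of the TPM order held in that table. Its middle was ordered, with Stat4 over Stat6 at 0.32 ± 0.13, Stat6 over Stat5b at 0.97 ± 0.26 and Stat4 over Stat5b at 1.29 ± 0.23. That table held 25.1% to 32.7% of the larger table's reads for Stat3 and 22.2% to 24.1% for Stat5b, but 49.5% to 53.0% for Stat2 and 50.8% to 54.5% for Stat4. Leaving out library 1 also brought Stat3 over Stat4 (0.71) and Stat5b over Stat2 (1.04) within 2 SD, and Stat3 over Stat6 came within 2 SD without library 1 (0.60) or library 2 (0.69).

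All 6 STAT genes differed between the libraries by more than read counting allows. The chi-square test with 2 degrees of freedom, on expected counts against TMM effective library sizes, called 13747 of 17190 genes at a Benjamini-Hochberg adjusted p of 0.05, or 80.0%. Calls were also made for 5854 of the 6261 genes with 1000 or more reads, or 93.5%, and all 6 STAT genes belong to that depth. A call therefore says little about a well-covered gene. The statistic ran from 91.6 for Stat4 (adjusted p = 5.52e-20) to 1764 for Stat3, and it compares these libraries, not conditions. The ratio of the highest to the lowest library, in CPM, reads scaled to the effective library size, had a median of 1.28 over the STAT genes, against 1.27 over the genes with 1000 or more reads and 1.41 over all genes tested. Stat3 had 509.9, 523 and 322 CPM and Stat5b had 383, 372 and 255 CPM, the widest ratios of the 6 at 1.63 and 1.498. Stat4 had the narrowest, 1.198, with 197, 179 and 164 CPM. The biological coefficient of variation from an intercept-only edgeR fit was 0.151 for Stat4, 0.163 to 0.165 for Stat5a, Stat2 and Stat6, 0.196 for Stat5b and 0.214 for Stat3. The fit moderates these values across genes, so they are not the spread of each gene alone. The common value of 0.375 covers all genes tested, most with under 1000 reads, so it is not matched to the STAT genes in depth. Despite their name, these coefficients come from technical replicates of 1 biological replicate and may reflect technical spread alone.

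Each of 3 genes lost its call when a certain library was left out, while 54.1% to 66.2% of all genes tested were called with 1 library fewer. Without library 1 the adjusted p of Stat2 was 0.976, without library 2 that of Stat6 was 0.143, and without library 3 that of Stat3 was 0.0619. Stat5b only just kept its call in the chi-square test without library 3, with an adjusted p of 0.0497. Stat2 had 121, 95.0 and 95.6 CPM, so that library 1 stood apart. Stat6 had 231, 295 and 239.8 CPM, with library 2 apart from the others, and for Stat3 it was library 3.

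Library 3 read below the mean of the other libraries for all 6 members. On the log2 CPM scale, with 0.5 CPM added, the deviation of library 3 was -0.68 for Stat3, -0.56 for Stat5b, -0.23 for Stat5a, -0.19 for Stat4, -0.17 for Stat2 and -0.12 for Stat6. The median deviation over all genes tested in that library was 0.010, with 49.2% of genes below 0. Stat3 and Stat5b alone lay outside the range of the middle quartiles of all genes, -0.31 to 0.32. Library 3 also read low for long transcripts. Over 17179 genes its deviation had a Spearman correlation of -0.27 with the length of the main transcript, as a description across genes that share libraries. The main transcripts of the STAT genes are long, from 2662 bases for Stat4 to 5062 bases for Stat5b, against a median of 2120 over all genes tested. A quadratic trend in length and GC content put genes of their length and composition at -0.16 for Stat2, -0.17 for Stat3, 0.041 for Stat4, -0.19 for Stat5a, -0.24 for Stat5b and -0.16 for Stat6. With it removed, library 3 stood at -0.51 for Stat3, -0.32 for Stat5b and -0.23 for Stat4, but at -0.045, -0.0088 and 0.035 for Stat5a, Stat2 and Stat6. After that removal the middle quartiles of all genes ran from -0.29 to 0.28, and Stat3 and Stat5b alone of the 6 lay outside them.

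**Figure D3:**
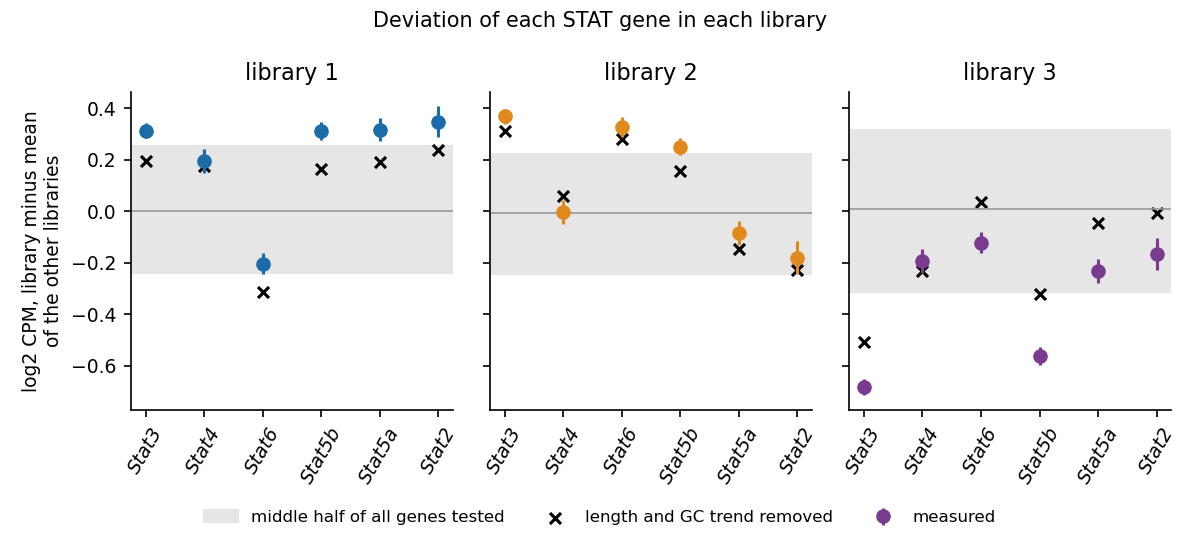
Deviation of each STAT gene (x axis) in each library from the mean of the other libraries, in log2 CPM (y axis). Coloured points are measured values with 95% counting intervals, crosses are values with the length and GC trend removed, and the grey band holds the middle quartiles of all genes tested. Stat3 and Stat5b lie below the band in library 3, and Stat6 is the member below 0 in library 1.

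The other libraries had their own pattern. Library 1 deviated upward for Stat2 (0.35), Stat5a (0.32), Stat3 (0.31), Stat5b (0.31) and Stat4 (0.20), and downward for Stat6 (-0.20). In library 2 Stat3 (0.37), Stat6 (0.33) and Stat5b (0.25) stood above the others, while Stat2 (-0.18) and Stat5a (-0.085) stood below and Stat4 was at -0.0033. Counting standard errors of these values were 0.015 to 0.033.

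Stat3 RNA was mainly one coding form. The gene lies at chr11:100885098-100939540 on the reverse strand, and 14 transcripts are annotated, of which 4 reached 5% of its TPM in some library. Stat3-203, with 770 codons, held 71.1%, 64.4% and 59.5% of the gene's TPM, and Stat3-201, with 769 codons, held 11.0%, 11.3% and 14.2%. The one-codon difference is a serine codon just before the tyrosine that JAK kinases phosphorylate. Stat3-202 encodes the shorter beta form, whose end is replaced so that the last part of the transactivation domain is lost. It has 722 codons and lacks 50 bases through another splice acceptor. The sequences below run from the exon before the first difference to the bases after the second, and they are spliced, so that introns are left out. They come from GENCODE M21 transcripts on mm10, at chr11:100889521-100893103 for Stat3-203 and Stat3-201 and chr11:100889519-100893103 for Stat3-202. Capitals mark the bases that another of the 3 forms lacks.
Stat3-203: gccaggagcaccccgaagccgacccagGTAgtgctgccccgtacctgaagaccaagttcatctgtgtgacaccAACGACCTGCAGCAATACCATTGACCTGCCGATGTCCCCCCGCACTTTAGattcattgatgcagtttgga
Stat3-201: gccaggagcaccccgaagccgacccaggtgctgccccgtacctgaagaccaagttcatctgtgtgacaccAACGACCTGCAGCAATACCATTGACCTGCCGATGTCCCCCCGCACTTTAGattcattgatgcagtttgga
Stat3-202: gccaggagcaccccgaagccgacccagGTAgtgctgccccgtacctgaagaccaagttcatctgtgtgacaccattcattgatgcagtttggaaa
The first capitals, GTA in Stat3-203 and Stat3-202, are the 3 bases absent from Stat3-201. The longer run is the 50 bases absent from Stat3-202, and the single in-frame TAC codon between the differences encodes the activating tyrosine, which all 3 forms keep.

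Among the serine-containing and serine-lacking full-length forms, Stat3-201 made up 13.4%, 14.9% and 19.2% of the TPM of both, a mean of 15.8 ± 3.03%. These transcripts also differ in length, 2927 bases for Stat3-201 and 4516 for Stat3-203. The split thus does not rest on the 3 bases alone, and these were not counted by themselves. In TPM Stat3-201 had 24.6, 27.8 and 19.2, with credibility intervals of 17.5 to 26.2, 18.4 to 28.8 and 13.7 to 22.1 that overlap in every pair of libraries. The low Stat3 level of library 3 was carried mainly by Stat3-203, which had 159, 158 and 80.9 TPM and whose interval in library 3 (72.3 to 78.0) lay far below the others. Stat3-202, which encodes the beta form, had 1.30, 2.97 and 2.99 TPM from 147, 313 and 399 reads. Its interval in library 1, 0.8 to 1.6 TPM, lay below those of library 2 (2.1 to 3.4) and library 3 (2.3 to 3.4). Stat3-202 is told apart mainly by a long last exon, since 1760 of its 50-base windows are in no other Stat3 transcript, against 61 for Stat3-203 and 44 for Stat3-201. Its values thus rest more on that exon than on the beta splice, which was not counted by itself. That exon overlaps the end of Stat5a on the opposite strand by 72 bases. Whether reads were counted by strand is not given in the sources used here, so the share of Stat3-202 is uncertain. Stat3-212 (4.60%, 5.51% and 4.83%) and Stat3-209 (3.57%, 5.89% and 4.22%) are annotated as retained introns, and no 50-base window is particular to Stat3-212.

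Stat5a was also led by a single full-length form. Stat5a lies at chr11:100859351-100885169 on the forward strand beside Stat3. Stat5a-202, with 793 codons, held 87.7%, 72.0% and 77.4% of its TPM. Stat5a-203, with 797 codons, held 5.56%, 20.1% and 14.6%, from 383, 1089 and 831 reads. This form lacks a 52-base exon, chr11:100881738-100881789, that holds the activating tyrosine codon, and its frame shifts from there to the end. It also begins at a different first exon, so use of the start and loss of the exon cannot be told apart in these sums. The sequences show the flanks on mm10, chr11:100881156-100882091 without the introns, with the exon in capitals.
Stat5a-202: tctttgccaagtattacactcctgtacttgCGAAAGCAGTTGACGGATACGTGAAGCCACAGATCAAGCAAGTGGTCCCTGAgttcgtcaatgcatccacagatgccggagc
Stat5a-203: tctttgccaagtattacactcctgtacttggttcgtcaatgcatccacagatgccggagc
Within the capitals the single in-frame TAC codon is the one that encodes the tyrosine. Stat5a-203 made up 5.97%, 21.8% and 15.9% of the TPM of both forms, a mean of 14.6 ± 8.01%. Its credibility intervals of 3.1 to 18.2, 8.4 to 21.9 and 4.9 to 15.4 TPM overlapped in every pair of libraries, and 49 of its windows are in no other Stat5a transcript. These intervals do not separate the libraries.

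Stat5b used 2 starts. The gene lies at chr11:100780731-100850724 on the reverse strand. Stat5b-201 and Stat5b-202 have identical coding sequences of 786 codons and differ in their first exons, with starts at 100850724 and 100822528. Stat5b-201 held 68.1%, 68.5% and 73.0% of the gene's TPM and Stat5b-202 held 20.4%, 24.0% and 24.4%. Of the TPM of both, Stat5b-202 was 23.0%, 25.9% and 25.02%, a mean of 24.6 ± 1.499%. The short processed transcript Stat5b-203 had 15.5, 9.47 and 1.97 TPM. Its interval in library 3, 0.5 to 4.1 TPM, lay below that of library 2 (4.2 to 13.9) and that of library 1 (9.9 to 19.2), although only 199, 113 and 29.8 reads stood behind it.

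Stat4 also had starts of unequal use. The gene lies at chr1:51987148-52107189 on the forward strand, and all 4 of its transcripts reached 5% in some library. Stat4-202 and Stat4-201 have the same 748 codons, with starts at 51987148 and 52008243. Stat4-202 held 81.0%, 79.9% and 78.6% and Stat4-201 held 3.43%, 4.71% and 6.31% of the gene's TPM. Of both, the downstream start made up 4.06%, 5.57% and 7.43%, from 257, 299 and 418 reads of Stat4-201, and its intervals of 2.9 to 5.8, 3.7 to 7.4 and 4.5 to 7.6 TPM overlapped. The retained introns Stat4-203 (7.93%, 7.32% and 5.89%) and Stat4-204 (7.63%, 8.12% and 9.17%) held the rest. A readthrough transcript, Gm28177, shares 32.1% of the windows of Stat4-202. It had 27.03, 40.2 and 32.0 reads, against 5963, 5069 and 5298 for Stat4.

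Stat2 and Stat6 each had 1 coding form above 5% and several retained introns. Stat2, at chr10:128270559-128292849 on the forward strand, had 64.0%, 69.2% and 61.1% of its TPM in Stat2-201. Retained-intron models took 36.0%, 30.8% and 38.9%, led by Stat2-207 (14.2%, 7.63% and 12.6%) and followed by Stat2-206 (8.48 ± 2.47%), Stat2-204 (6.26 ± 3.58%) and Stat2-205 (3.63 ± 1.66%). This was the largest retained-intron share among the 6 genes, and the coding TPM of Stat2 was 40.5, 32.2 and 28.7. Stat6, at chr10:127642986-127660957 on the forward strand, had 85.6%, 89.1% and 87.6% in Stat6-201, which encodes 837 codons. Its retained introns Stat6-205 (6.78 ± 1.28%) and Stat6-204 (5.47 ± 2.28%) made up nearly all the rest. These shares weigh short models heavily. Counted in reads, the main form held 90.9 ± 0.88% for Stat2, 97.4 ± 0.37% for Stat6, 83.0 ± 5.04% for Stat3 and 89.1 ± 1.54% for Stat4.

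Over all transcripts annotated as coding, the share of TPM was 96.2 ± 0.64% for Stat5a, 92.8 ± 4.45% for Stat5b, 87.4 ± 1.74% for Stat6, 84.7 ± 0.26% for Stat4, 80.0 ± 2.92% for Stat3 and 64.7 ± 4.09% for Stat2. Restricted to coding transcripts, Stat3 had 161 ± 45.1 TPM and Stat2 33.8 ± 6.05 TPM, and the middle members came closer together, with 104 ± 18.0 TPM for Stat6, 103 ± 26.0 TPM for Stat5b and 101 ± 13.9 TPM for Stat4. Stat5a followed at 83.4 ± 15.0 TPM. On this scale 9 of the 15 pairs exceeded the spread, and Stat3 over Stat6 did not (log2 ratio 0.60).

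**Figure D4:**
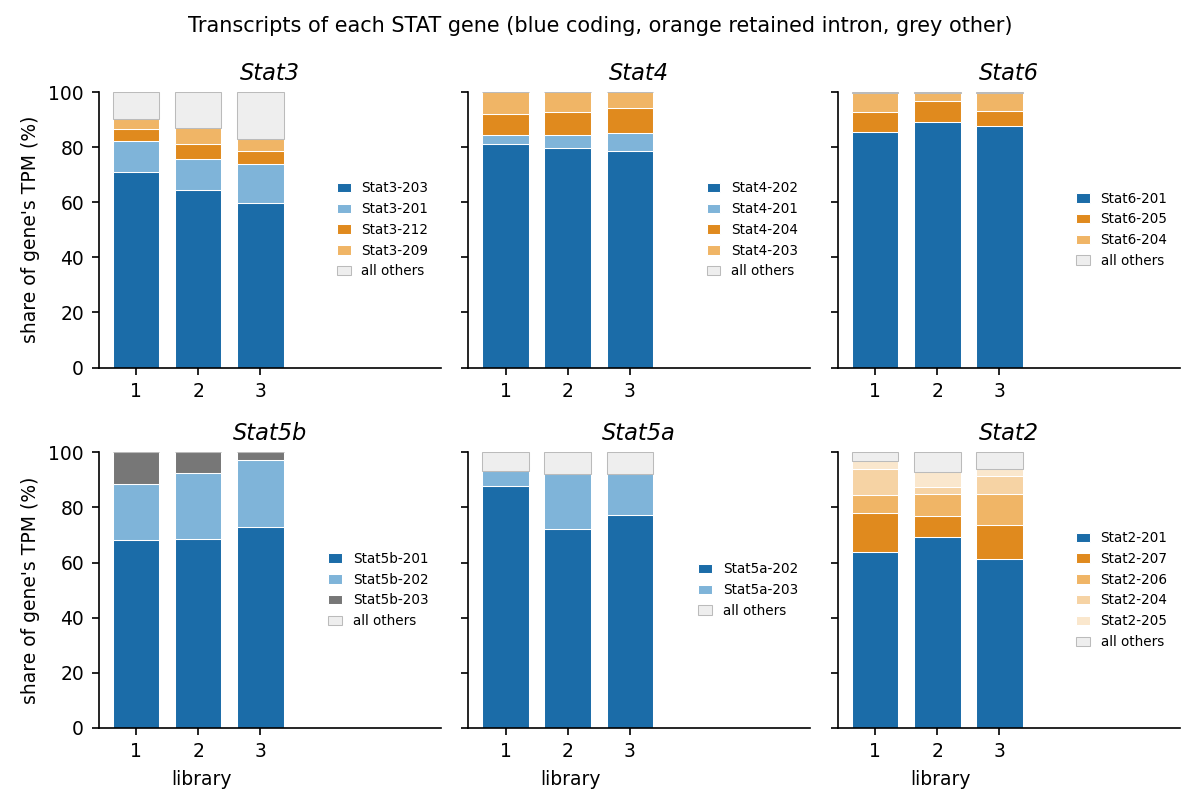
Share of each STAT gene's TPM (y axis, %) held by its transcripts in libraries 1, 2 and 3 (x axis), 1 panel per gene. Blue marks coding transcripts, orange retained introns and grey other transcripts, with every transcript that reached 5% in a library named. Stat5a-202 runs from 72.0% to 87.7% and Stat3-203 from 59.5% to 71.1% between libraries.

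The upstream sequences of the STAT genes were searched for the sites that STAT factors bind. STAT pairs bind TTCNNNGAA, Stat6 prefers TTCNNNNGAA, and the complex of Stat2 with Irf9 binds the interferon response element, here searched as GAAANNGAAA. Both strands were searched in the 250 bases before each RefSeq start (GRCm38.p6). Of 32851 such windows over all genes, 7.02%, 5.85% and 2.98% held these letters. Stat2 held TTCNNNNGAA, 210 bases before its start, and GAAANNGAAA on the other strand, 222 bases before it. These matches stand in capitals in its window, chr10:128270248-128270497 on the forward strand, shown because Stat2 is itself part of the interferon complex.
Stat2: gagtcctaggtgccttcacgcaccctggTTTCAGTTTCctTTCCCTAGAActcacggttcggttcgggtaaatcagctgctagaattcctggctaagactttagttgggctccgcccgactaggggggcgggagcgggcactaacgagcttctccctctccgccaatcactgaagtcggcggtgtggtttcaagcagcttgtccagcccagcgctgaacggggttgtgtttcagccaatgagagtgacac
The downstream start of Stat4 held GAAANNGAAA, 97 bases before it, and the upstream start held none of the 3 motifs. Both Stat4 windows, chr1:51986898-51987147 and chr1:52007990-52008239 on the forward strand, are shown because RNA from their starts was so unequal, and the match is in capitals.
Stat4-202 start: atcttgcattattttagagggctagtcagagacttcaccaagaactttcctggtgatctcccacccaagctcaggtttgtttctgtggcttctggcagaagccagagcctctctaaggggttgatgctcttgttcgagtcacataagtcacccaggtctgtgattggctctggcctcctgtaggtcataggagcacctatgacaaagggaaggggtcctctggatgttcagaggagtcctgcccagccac
Stat4-201 start: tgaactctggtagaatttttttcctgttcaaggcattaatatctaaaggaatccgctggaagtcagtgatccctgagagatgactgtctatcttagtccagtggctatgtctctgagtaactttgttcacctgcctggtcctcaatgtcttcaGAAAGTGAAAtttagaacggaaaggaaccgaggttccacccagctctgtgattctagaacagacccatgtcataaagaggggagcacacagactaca
No motif of the 3 was found in the windows of Stat3, Stat5a, Stat5b and Stat6, which says only that these letters are absent there. The windows differ in CG dinucleotides. The 2 Stat4 windows hold 1 and 3, and that of the downstream Stat5b start holds 5 against 40 at the upstream one, whose RefSeq start lies nearest to that of Stat5b-203. The Stat5a windows hold 5 before Stat5a-202 and 21 before Stat5a-203, and those of Stat2, Stat3 and Stat6 hold 14, 13 and 6. The start with more RNA thus had fewer CG dinucleotides in Stat4 and Stat5a. In Stat5b the comparison depends on the form. The window with 40, chr11:100850582-100850831, contains the start of Stat5b-201 (mean 77.6 TPM), so part of it lies within that transcript. Stat5b-203, whose start is nearest, had a mean of 8.97 TPM, against 25.3 TPM for Stat5b-202 at the downstream start.

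Receptors and kinases that feed the STAT genes were present for some cytokines and nearly absent for others. All 4 JAK kinases were detected, with Jak1 at 411 ± 45.6 TPM and Jak2 at 141 ± 33.9 TPM the highest and Tyk2 at 37.9 ± 5.96 TPM the lowest. All 4 were called in the chi-square test, as were 80.0% of all genes, and all 4 were lowest in library 3, which was the lowest library for 39.1% of all genes called. Their median deviation in library 3 was -0.40, and -0.14 with the length and GC trend removed.

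For Stat5, 8 of 11 receptor genes reached 1 TPM in every library. Il2rg, the common gamma chain, had 677, 739 and 1033 TPM and Il2rb, the beta chain of the IL-2 receptor, had 773, 770.1 and 609 TPM, so library 3 was highest for the first and lowest for the second. Ghr, the growth hormone receptor, was lowest at 0.173 ± 0.140 TPM. All 10 Stat5 receptor genes tested were called, as were 80.0% of all genes tested. For Stat6, Il4ra, the signalling chain for IL-4, had 188, 263 and 161 TPM and was highest in library 2, the library in which Stat6 itself was highest. The other 2 genes of that list, Il2rg and Il13ra1 (0.607 ± 0.146 TPM), were highest in library 3, and all 3 genes were called.

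For Stat3, 6 of 11 receptor genes reached 1 TPM in every library and 9 of the 10 tested were called, against 80.0% of all genes tested. Il27ra had 150.02, 186 and 212 TPM, highest in library 3, where Stat3 was lowest. Il21r had 170.1, 191 and 135 TPM. Il23r, the specific chain of the IL-23 receptor, was lowest at 0.0333 ± 0.0231 TPM. For Stat4, Il12rb1, shared by the IL-12 and IL-23 receptors, had 45.4, 36.0 and 23.6 TPM, but Il12rb2, the chain that docks Stat4, had 5.46, 1.27 and 0.70 TPM. The Stat4 level of 120 ± 16.8 TPM thus stood beside a mean of 2.48 ± 2.60 TPM for Il12rb2. For Stat2, the interferon receptor chains Ifnar2 (84.5 ± 7.03 TPM) and Ifnar1 (81.1 ± 5.18 TPM) were called, the 2 calls among the 3 genes of that list tested, and Ifnlr1, the receptor chain for type III interferon, was near 0 at 0.0567 ± 0.0896 TPM.

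Inhibitors of the pathway were present throughout. All 20 genes of that list, which holds SOCS, PIAS and phosphatase genes, reached 1 TPM in every library, and 18 of 20 were called, 8 of them highest in library 3 and 8 lowest there, near the 39.2% and 39.1% of all genes called. Their median deviation in library 3 was -0.0058. Ptprc, the phosphatase CD45, led with 740.5, 832 and 882 TPM. Cish, a Stat5-induced SOCS family member, followed with 383, 329 and 283 TPM, and Socs7 was lowest at 1.59 ± 0.102 TPM. All 10 partner genes, which cover Irf9, importins and coactivators, were detected and called. The share called over all genes tested, for comparison with both lists, was 80.0%. Irf9, which binds DNA with Stat2, led with 147, 122 and 138 TPM, above Stat2 in each library. Nmi, which binds STAT proteins, had 112, 109.6 and 165 TPM, and the importin Kpna6 was lowest at 15.3 ± 3.18 TPM.

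**Figure D5:**
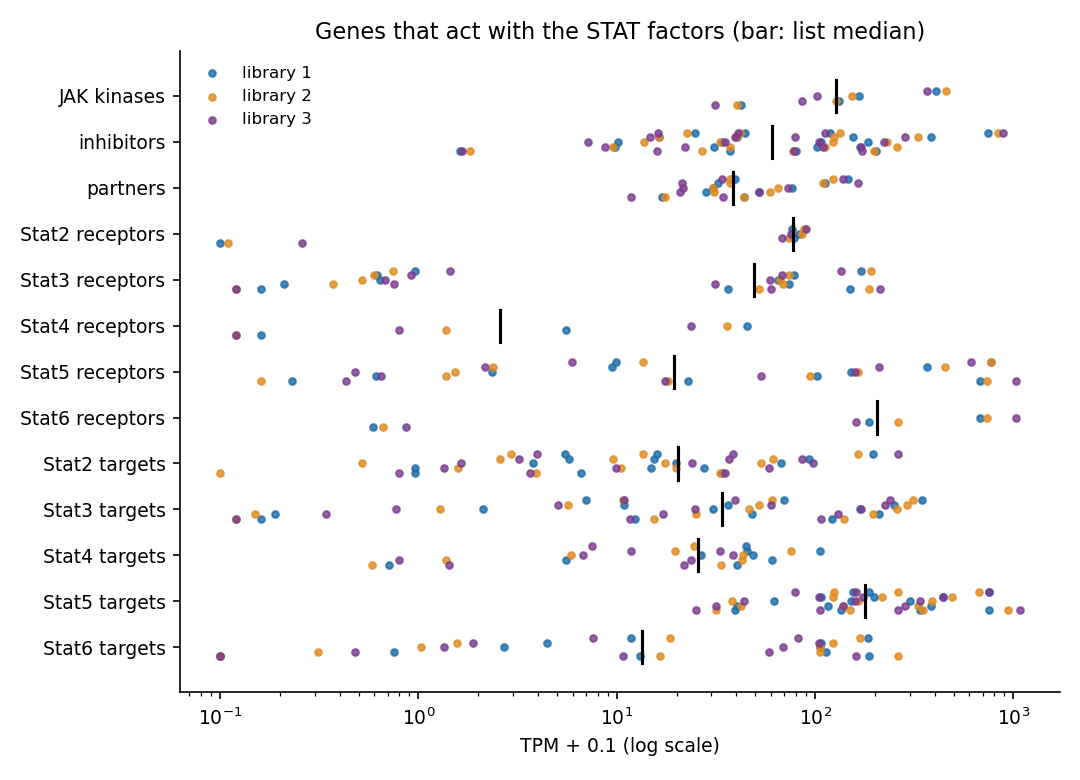
Levels (x axis, TPM + 0.1, log scale) of genes that act with the STAT factors, by list (y axis). Each coloured point is 1 gene in 1 library and each black bar is the median of the list's mean levels. Genes known as Stat5 targets have a median of 177 TPM, and receptor chains for Stat4 a median of 2.48 TPM.

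Genes known from other work as STAT targets were present at unlike levels. The lists share members, such as Socs1 and Il4ra, and other factors also drive these genes, so no level speaks for 1 STAT factor. Of the Stat5 targets, all 16 reached 1 TPM in every library with a median of 177 TPM. The cell cycle gene Ccnd2 had 753, 940 and 1076 TPM, the costimulatory receptor gene Tnfrsf4 had 753, 668 and 751 TPM, and the kinase gene Pim1 was lowest at 31.9 ± 7.15 TPM. All 16 were called, as were 80.0% of all genes tested and 93.5% of those with 1000 or more reads. In CPM, 8 of them were lowest in library 3, as were 39.1% of all genes called. Of 15 Stat3 targets, 12 reached 1 TPM in every library and 13 of 13 tested were called. In CPM, 7 of these were lowest in library 3, beside the same shares of all genes. Junb had 346, 312 and 239 TPM and Batf had 249.9, 289.6 and 226 TPM.

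Of 9 Stat4 targets, all were called, 8 were highest in library 1 and 7 were lowest in library 3. Of all genes tested 80.0% were called, and of all genes called, 31.6% were highest in library 1 and 39.1% lowest in library 3. Furin, a protease induced by IL-12, had 105, 75.9 and 33.1 TPM, and Tnfsf11 had 48.7, 43.2 and 38.5 TPM, while Hlx was lowest at 0.803 ± 0.452 TPM. Their median deviation in library 1 was 1.00, and 0.81 with the length and GC trend removed, against 0.20 for Stat4 itself. The sums of the cytotoxic, macrophage, neutrophil, dendritic and erythroid genes were also highest in library 1. The cytotoxic sum was mostly Nkg7 (338, 163 and 188 TPM). Of the other cytotoxic genes with reads, Prf1 was highest in library 1, Gzma in library 2 and Klrb1c in library 3. The part of all these genes in the Stat4 target list was not tested. Of 11 Stat6 targets, 8 reached 1 TPM in every library and 10 of 10 tested were called. In CPM, 6 of these were lowest in library 3, beside the 39.1% of all genes called. Il4ra and Gata3 (184, 168 and 82.1 TPM) led, and Il24 had 0 reads throughout.

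Among targets of Stat2, the interferon-stimulated genes, library 2 was mostly the lowest. All 15 such genes were called, as were 80.0% of all genes tested. In CPM, 10 were highest in library 3 and 14 lowest in library 2, against 39.2% and 29.9% of all genes called. In TPM both counts were smaller, and Irf7 was highest in library 1. Zbp1 had 197, 165 and 261 TPM and Irf7 had 93.2, 61.4 and 85.5 TPM, while Ifi44 was lowest at 0.520 ± 0.457 TPM. The median deviation of the list was -0.048, -0.68 and 0.51, and that of Stat2 was 0.35, -0.18 and -0.17. In library 3 the list thus stood above the other libraries and Stat2 below them, in 3 libraries that give no test of a relation. B-cell genes, whose sum was also highest in library 3 and lowest in library 2, moved with the list, and their part in it was not tested.

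The genes nearest to each member across the 3 libraries were found among 8029 protein-coding genes with a mean of 10 TPM or more. Likeness was the Euclidean distance between mean-centred log2(TPM + 1) values. Arhgap30 (163, 180.3 and 99.2 TPM) and Vezt were nearest to Stat3, at 0.0078 and 0.0154. Mthfd1l (26.98, 25.1 and 14.6 TPM) and Pom121 were nearest to Stat5b, Cmtr1 and Trappc10 to Stat5a, and Zfp930 and Tor4a to Stat4. Mgea5 and Orc6 were nearest to Stat2, and Zfp830 and Mis12 to Stat6. With 3 libraries many genes share a pattern, and between 140 (Stat3) and 513 (Stat4) genes lay within a distance of 0.1 of a member. Among the members, Stat4 and Stat5a were the closest pair at 0.083, and Stat3 and Stat5b were at 0.159. Stat6 was the most distant, at 0.317 from Stat4, its nearest member.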

How the data were processed

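Polyadenylated RNA-seq libraries of activated Treg, labelled technical replicates 1, 2 and 3 of 1 biological replicate, formed 1 group. The members and gene lists were chosen with earlier results of these data known. Genes named are the 6 STAT genes, their transcripts at 5% or more of the gene's TPM in a library (Stat3-202, Stat2 models of lower mean share and Gm28177 were added for their sequence), the 2 highest and 1 lowest genes of each list, leading and undetected markers, and the 2 nearest genes.

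Per the file headers, the transcript table and the larger of the gene tables follow the RSEM column layout, on mm10 with GENCODE M21. Their expected counts are the authors' estimated counts, not normalized. TPM and FPKM as deposited were scaled by the authors for length and total, and the deposited percent columns give each transcript's share of its gene. Bounds of the TPM interval are kept as a signal, as deposited by the authors, since they need not sum to a fixed total. The deposited lengths imply reads of 50 bases. The other deposited table holds whole-number counts for 22457 genes of GENCODE M4. Aligner, counter and strandedness: not given in the sources used here.

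Genes averaging at least 10 reads were tested on rounded expected counts by chi-square against TMM effective sizes (edgeR 4.0.16, R 4.3.3, DESeq2 1.42.0 size factors as alternative), with Benjamini-Hochberg adjustment. No contrast could be fitted with 1 group, and 3 libraries cannot give a sign-flip p under 0.25. Counting intervals and the approximate limit of 3 expected reads cover counting error only. Counts of list genes highest or lowest in a library, and the shares of all genes called beside them, are by CPM. Promoters are from RefSeq (GRCm38.p6), and all 6 genes matched. Python 3.11.15, numpy 2.4.6, scipy 1.17.1, pandas 2.3.3 and Biopython 1.88 were used.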

Additional observations from a re-analysis of the deposited data

How the results depend on the processing

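No paired analysis was possible because the series has 1 group. The chi-square test called 13747 of 17190 genes (80.0%), against 7828 of 11992 (65.3%) in the other deposited gene table. With 1 library left out it called from 8880 of 16415 (54.1%, without library 3) to 11773 of 17796 (66.2%, without library 2). All 6 STAT genes were called under 5 alternatives. These called 48.1% (no filter on low counts) to 87.1% (mean of 50 or more reads) of all genes tested. With any library left out, 5 of the 6 STAT genes were called. FPKM put the mean levels at 33.6 for Stat2, 128.7 for Stat3, 76.8 for Stat4, 55.6 for Stat5a, 71.3 for Stat5b and 76.1 for Stat6, since it is not scaled to the same total. The other table, per kilobase and effective library size, moved Stat3 to 124, Stat4 to 142, Stat5a to 64.3 and Stat5b to 58.1. It put the log2 ratios of Stat3 over Stat4 (-0.20 ± 0.13) and Stat5b over Stat2 (-0.057 ± 0.31) below 0 but within 2 SD of it. The cause was not tested. Left-out libraries moved levels to 46.8 to 55.1 TPM for Stat2, 180 to 235 for Stat3, 112 to 129 for Stat4, 79.1 to 94.2 for Stat5a, 101 to 130 for Stat5b and 108 to 126 for Stat6. As a share of expected counts in place of TPM, the main form was 90.9% for Stat2, 83.0% for Stat3, 89.1% for Stat4, 74.0% for Stat5b and 97.4% for Stat6, because short models weigh less. Removal of the length and GC trend turned the library 3 deviation of Stat6 to 0.035. At this depth the STAT genes have 2684 to 15445 reads, while transcripts told apart by few windows rest on far fewer.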
